A study of Homo sapiens with 4 samples.

Results

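Genes that mark mast cells, basophils and eosinophils were examined in Meg-01 cells in which the transcription factor GATA1 was targeted by shRNA. Meg-01 is an established human megakaryoblastic leukemia cell line. The members were the non-control probes of the array whose gene name was MS4A2, MS4A3, HDC, CPA3, PRG2, CLC, FCER1A, TPSAB1, TPSB2 or EPX, and every probe was kept apart. Of the 10 names, 9 had a probe, out of 30499 gene names on the array, and these 9 names had 10 probes out of 40974 tested. The set was put together with the response of MS4A3 in these same arrays in view, so the values of the members are given as a description. The fit over all probes holds the members too, but their calls there are not read as results.

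RNA from each of 2 clones, GATA1 5-13 and GATA1 4-14, was compared with RNA from GATA1 Neg on 2-colour Agilent arrays, with 2 arrays for each clone. Each clone carried a lentiviral GATA1 shRNA and descended from a single colony picked from soft agar, whereas GATA1 Neg was not cloned but kept as pooled cells that carried a non-targeting lentiviral shRNA. All cells shared the same Meg01 parent line, medium and serum, the clones had passed puromycin selection and had been picked for lower GATA1, the labels name no drug treatment of the cells on the arrays, and the extraction label names CMK cells where all other labels name Meg01. The dyes were swapped between the arrays of a clone, with the knockdown RNA in red on array 1 and in green on array 2, so n = 2 clones and not 4 samples. The targeted gene, GATA1, was lower than in GATA1 Neg by log2 ratios of -0.21 and -0.34 for GATA1 5-13 and of -0.43 and -0.58 for GATA1 4-14, a mean of -0.39 ± 0.16 (SD, n = 2) that is lower on all 4 arrays and did not pass the test over all probes (limma, adjusted p = 0.605). Because each knockdown was 1 clone and the control a pool, an effect of GATA1 and an effect of clone selection cannot be told apart, and a lower signal from fewer expressing cells cannot be told apart from less RNA per cell.

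GATA1 is best known for its part in red cell and megakaryocyte formation, but mast cells, basophils and eosinophils also depend on GATA factors, which bind short sites with the core letters GATA. Mast cells and basophils carry the high affinity IgE receptor. Its alpha chain binds IgE, its beta chain amplifies the signal and its gamma chain carries it into the cell. Granules of mast cells, basophils and eosinophils hold, between them, histamine, proteases and cationic proteins, which are released in allergy and in defence against parasites.

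The sequence just upstream of the start was read for 6 of the 10 members from RefSeq (GRCh38.p14), as 250 bases for each gene, and was searched on both strands for the motif AGATAA and the related motif AGATAG, and for the motif TGATAA and the related motif TGATAG. At least 1 match stood in 5 of the 6 windows, against 22.3% of 35116 windows of the same length over all genes in the table. The windows of the 3 members with the lowest ratios and of the 1 member with a higher ratio are shown because they carry the pattern described here, with the matches in capitals, in gene orientation. They lie at chr11:60056415-60056664 (plus strand) for MS4A3, chr11:60088414-60088663 (plus strand) for MS4A2, chr1:159302086-159302335 (plus strand) for FCER1A and chr3:148865046-148865295 (plus strand) for CPA3.
MS4A3: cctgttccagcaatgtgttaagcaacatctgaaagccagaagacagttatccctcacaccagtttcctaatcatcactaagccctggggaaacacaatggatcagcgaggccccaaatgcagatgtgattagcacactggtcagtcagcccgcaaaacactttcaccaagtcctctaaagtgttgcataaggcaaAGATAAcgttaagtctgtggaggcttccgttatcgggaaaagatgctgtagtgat
MS4A2: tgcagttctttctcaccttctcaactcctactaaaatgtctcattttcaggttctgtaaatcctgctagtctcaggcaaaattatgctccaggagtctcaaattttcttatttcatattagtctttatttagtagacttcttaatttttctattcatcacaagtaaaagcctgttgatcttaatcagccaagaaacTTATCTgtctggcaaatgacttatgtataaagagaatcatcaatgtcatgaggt
FCER1A: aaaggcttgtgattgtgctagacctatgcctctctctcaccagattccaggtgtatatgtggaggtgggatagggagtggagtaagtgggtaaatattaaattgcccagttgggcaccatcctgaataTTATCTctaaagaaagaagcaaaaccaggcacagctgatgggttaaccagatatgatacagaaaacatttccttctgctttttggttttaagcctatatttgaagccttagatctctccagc
CPA3: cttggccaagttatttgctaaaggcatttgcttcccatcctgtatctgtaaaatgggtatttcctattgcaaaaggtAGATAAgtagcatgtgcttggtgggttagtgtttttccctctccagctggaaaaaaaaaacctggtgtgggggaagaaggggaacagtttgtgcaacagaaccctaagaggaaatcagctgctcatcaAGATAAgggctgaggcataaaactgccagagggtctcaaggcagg

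In MS4A3 the match AGATAA covered bases 55 to 50 upstream of the start on the gene strand, and in MS4A2 it covered bases 54 to 49 on the opposite strand. The FCER1A match lay farther off, from base 122 to base 117, on the opposite strand. CPA3 had matches at bases 173 to 168 and 45 to 40, both on the gene strand, and only 4.96% of all windows held 2 or more. The longer form AGATAAG, which contains AGATAA, was in the windows of MS4A2 and CPA3 and in 2.36% of all windows. CLC held AGATAA and TGATAG, and HDC held none of the 4. TPSAB1, TPSB2, PRG2 and EPX had no entry in the table. Matching letters thus stood before genes with lower and with higher ratios, and a match is a description of the sequence, not a site shown to be bound.

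Values below are log2 ratios of knockdown over GATA1 Neg, so that 0 is no difference and -1 a ratio of 0.5 to 1. Of the 10 member probes, 6 were lower on all 4 arrays, where 13.4% of all probes tested were, and 1 was higher on all 4, where 12.8% of all probes were. MS4A3, FCER1A and MS4A2 lay below -1 on every array, a level reached by 0.139% of all probes. The median of the member probes was -0.34, against 0.00 for all probes tested. With limma over both clones 2 member probes, MS4A3 and MS4A2, were at or below an unadjusted p of 0.005, as were 0.901% of all probes, and 6 were below 0.05, as were 7.42%. None passed an adjusted p of 0.05, the same as for all probes (0%). Since the set was chosen on this comparison, nothing is read from these counts.

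**Figure D1:**
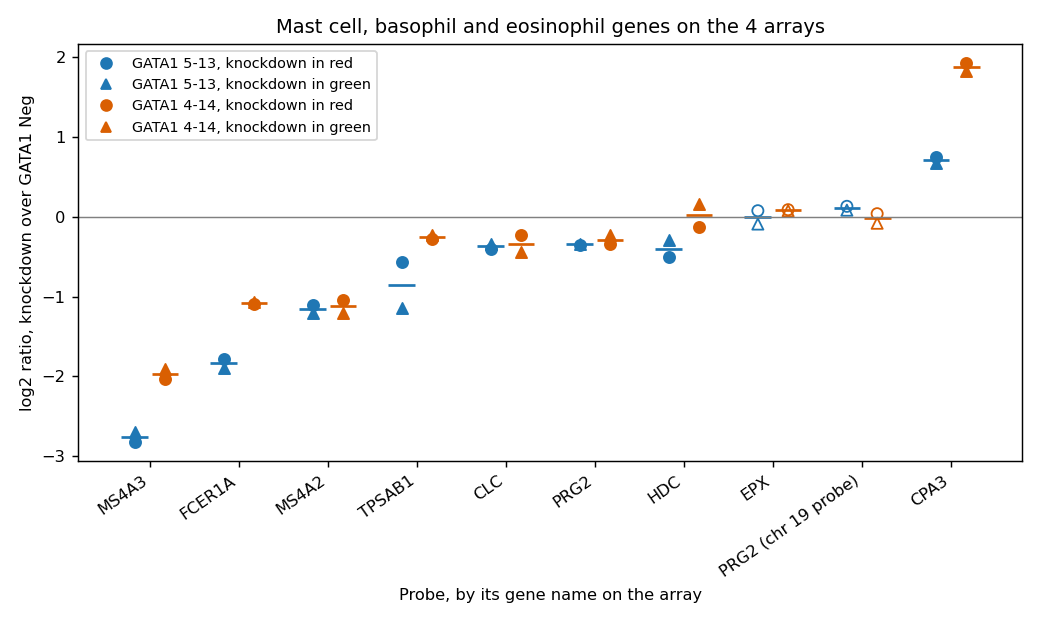
Log2 ratio of knockdown over GATA1 Neg (vertical axis) for each of the 10 member probes (horizontal axis) on the 4 arrays; colour marks the clone, shape the dye of the knockdown RNA, short lines the clone means, and open symbols probes with both RNAs not well above background. MS4A3, FCER1A and MS4A2 lie below -1 on all arrays and CPA3 lies above 0.5 on all arrays.

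MS4A3 encodes a membrane protein of the MS4A family found in blood progenitors and basophils. Its ratio was -2.82 and -2.70 on the arrays of GATA1 5-13 and -2.03 and -1.91 on those of GATA1 4-14. The normalized intensity in GATA1 Neg ran from 17900 to 20180, and in the knockdown RNA it was 2868 and 2833 in GATA1 5-13 and 4673 and 4760 in GATA1 4-14. The signals of the clones and of GATA1 Neg did not overlap, and GATA1 5-13 was the lower of the clones on both of its arrays. The share of all probes without such an overlap was not counted, here or below.

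The mean over the clones for MS4A3 was -2.36 ± 0.56 (SD, n = 2), which is 5.14-fold lower than GATA1 Neg. GATA1 5-13 held 14.8% of the control signal and GATA1 4-14 held 25.5%. The clones were 0.79 apart, whereas the arrays of a clone were 0.12 apart in each, so most of the spread lay between the clones. Only 6 of the 40974 probes had a lower mean. The probe (A_23_P161909, NM_006138) lies on chromosome 11 from 59591083 to 59591142 in hg18, and both RNAs were well above background on all 4 arrays.

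By the Euclidean distance of its 4 ratios to those of MS4A3, the nearest of 24511 probes with GATA1 Neg signal well above background on all 4 arrays was NLRC3, a member of the NLR family, at 0.273. NLRC3 had clone means of -2.67 and -1.80. HSH2D lay at 0.702, with clone means of -2.51 and -1.58, and KDR, a receptor for VEGF, at 0.886, with clone means of -2.66 and -1.36. PHLDB2 and NPR3 were also among the 5 nearest, but their distances rest in part on signals near background and give them no firm place. PHLDB2 was not well above background in either knockdown RNA and was at least 4.38-fold lower, and NPR3 was above background on 1 of the 2 knockdown arrays of GATA1 5-13. NLRC3, HSH2D and KDR were, like MS4A3, lower in GATA1 5-13 than in GATA1 4-14, a likeness that the distance itself asks for.

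FCER1A, the alpha chain of the high affinity IgE receptor, had ratios of -1.78 and -1.90 in GATA1 5-13 and -1.10 and -1.07 in GATA1 4-14. Its intensity in GATA1 Neg was 47200 and 39370 on the GATA1 5-13 arrays and 45330 and 38630 on the GATA1 4-14 arrays. The knockdown RNA gave 13760 and 10590 in GATA1 5-13 and 21180 and 18380 in GATA1 4-14. All knockdown signals lay below all control signals, and GATA1 5-13 was again the lower clone.

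The mean for FCER1A was -1.46 ± 0.53 (SD, n = 2), 2.75-fold lower, with 28.0% of the control signal left in GATA1 5-13 and 47.2% in GATA1 4-14. The clones differed by 0.75, more than the 0.12 and 0.03 between the arrays of each. A lower mean was found for 48 probes. The probe (A_23_P103765, NM_002001) spans positions 157542658 to 157544219 of chromosome 1 in hg18.

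MS4A2, the beta chain of the same receptor, had ratios of -1.10 and -1.20 in GATA1 5-13 and -1.04 and -1.20 in GATA1 4-14. Its intensity in GATA1 Neg lay between 577.8 and 635.5 on the 4 arrays. The knockdown RNA gave 283 and 273.5 in GATA1 5-13 and 281.4 and 276.7 in GATA1 4-14. The clones lay on top of each other, which was not so for MS4A3 or FCER1A.

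The mean for MS4A2 was -1.14 ± 0.02 (SD, n = 2), 2.20-fold lower, and the clone means were 0.03 apart, less than the 0.10 and 0.16 between the arrays of a clone. An SD from 2 clones that happen to coincide says little of the true spread. A lower mean was found for 99 probes. The probe (A_23_P1904, NM_000139) lies on chromosome 11 from 59622332 to 59622391 in hg18 and was well above background in both RNAs on every array, but it is dim. Its size therefore depended on the background step, with -1.42 from the ratios of the scanner software and -0.68 without background correction.

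The gamma chain of the receptor, FCER1G, is shared with other Fc receptors and is no member of the set. Its ratio was -0.35 and -0.44 in GATA1 5-13 and 0.06 and -0.03 in GATA1 4-14. The mean of -0.19 ± 0.29 (SD, n = 2) did not pass the test (limma, adjusted p = 0.765). Thus alpha and beta chain probes were lower on all 4 arrays, and the gamma chain probe was lower on both arrays of GATA1 5-13 with signs that differed between the arrays of GATA1 4-14. The difference between the chains was not tested.

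**Figure D2:**
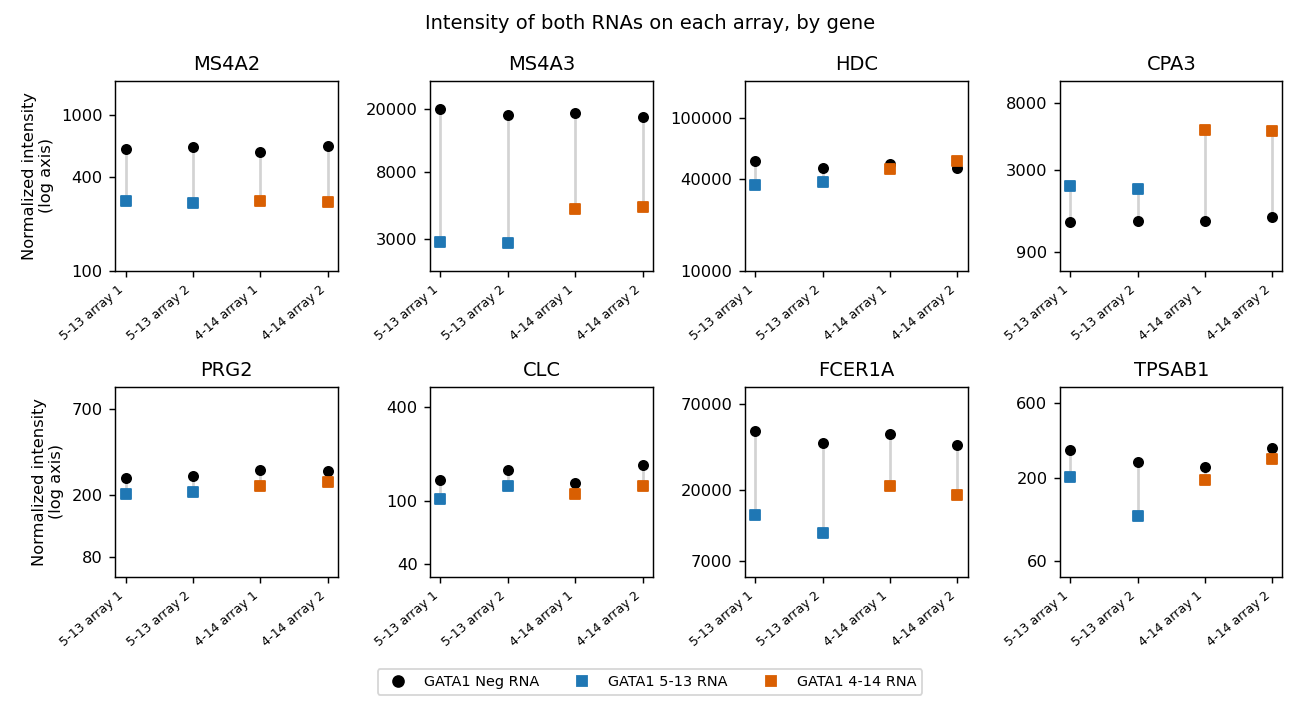
Normalized intensity (vertical log axis, each panel spanning the same fold range) of GATA1 Neg RNA (black circles) and knockdown RNA (coloured squares) on the 4 arrays, for the 8 member probes with a signal above background. The squares lie far below the circles for MS4A3, FCER1A and MS4A2, far above them for CPA3 in GATA1 4-14, and closer to them for HDC, PRG2 and CLC; levels are not comparable between panels.

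Among the enzymes and proteases of mast cell granules, the members did not move together. CPA3, the mast cell carboxypeptidase, had ratios of 0.74 and 0.67 in GATA1 5-13 and 1.92 and 1.82 in GATA1 4-14. Its intensity in GATA1 Neg ran from 1409 to 1513, and the knockdown RNA gave 2361 and 2260 in GATA1 5-13 and 5408 and 5323 in GATA1 4-14. CPA3 was the 1 member higher on every array, and here GATA1 4-14 was farther from the control than GATA1 5-13.

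The mean for CPA3 was 1.29 ± 0.82 (SD, n = 2), with GATA1 5-13 1.63-fold and GATA1 4-14 3.65-fold above GATA1 Neg. The clones were 1.16 apart, against 0.08 and 0.11 between the arrays of a clone. A higher mean was found for 61 probes. The probe (A_23_P18017, NM_001870) lies on chromosome 3 from 150097155 to 150097214 in hg18.

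HDC, the enzyme that makes histamine, had an intensity from 46530 to 51700 in GATA1 Neg and from 36270 to 51910 in the knockdown RNA. Its ratio was -0.51 and -0.29 in GATA1 5-13 and -0.12 and 0.16 in GATA1 4-14. The mean was -0.19 ± 0.30 (SD, n = 2), smaller than its spread, and without GATA1 5-13 it was 0.02, so no direction is given. The probe (A_23_P117662, NM_002112) lies on chromosome 15 from 48321462 to 48321521.

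TPSAB1, a tryptase, had ratios of -0.57 and -1.14 in GATA1 5-13 and -0.28 and -0.23 in GATA1 4-14. The arrays of GATA1 5-13 were 0.57 apart, and only 1 of them had knockdown signal well above background, whereas both arrays of GATA1 4-14 had it. The mean was -0.56 ± 0.42 (SD, n = 2). It ranged from -1.05 with the ratios of the scanner software to -0.25 without background correction. The probe (A_23_P37702, NM_003294, chromosome 16 from 1231872 to 1231931 in hg18) also lists the transcript NM_024164, which RefSeq gives to TPSB2, so the 2 near-identical tryptase genes cannot be told apart by it. No probe carried the name TPSB2.

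Of the eosinophil genes, PRG2 and CLC were lower on all 4 arrays and EPX was not above background. PRG2, the eosinophil major basic protein, had ratios of -0.35 and -0.34 in GATA1 5-13 and -0.35 and -0.23 in GATA1 4-14. Its mean was -0.32 ± 0.04 (SD, n = 2), which leaves 78.7% of the control signal in GATA1 5-13 and 81.8% in GATA1 4-14. Intensities in GATA1 Neg ran from 256.9 to 287.9 and in the knockdown RNA from 201.5 to 241.3. The probe (A_23_P218002, NM_002728) lies on chromosome 11 from 56913161 to 56913220. Its mean was -0.45 with the ratios of the scanner software and -0.14 without background correction.

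CLC, the Charcot-Leyden crystal protein, had ratios of -0.40 and -0.35 in GATA1 5-13 and -0.23 and -0.45 in GATA1 4-14, with a mean of -0.36 ± 0.02 (SD, n = 2). Signal well above background was found in the knockdown RNA on 1 array of GATA1 5-13 and on neither array of GATA1 4-14. CLC was 1.26-fold lower in GATA1 4-14, a ratio from signal near background and not a lower limit. The mean was -0.79 with the ratios of the scanner software and -0.11 without background correction. Its direction was the same without background correction, with the scanner software's ratios, with median centring and with weighting by the ratios' errors. Its size rests on the treatment of background. The probe (A_23_P101683, NM_001828) lies on chromosome 19 from 44913841 to 44913900.

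EPX, the eosinophil peroxidase (A_23_P89192, NM_000502, chromosome 17 from 53635622 to 53636584), was not well above background in either RNA on any array. Its intensities ran from 63.94 to 73.05, and no fold is given. The second probe named PRG2 (A_23_P67569, NM_024888) lies on chromosome 19 from 763738 to 763797 and is described on the array as plasticity-related gene 2, the gene that RefSeq calls PLPPR3. It is no eosinophil gene although it met the rule by its name, and both of its RNAs were not well above background on all 4 arrays. Leaving it out changed none of the counts above.

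**Figure D3:**
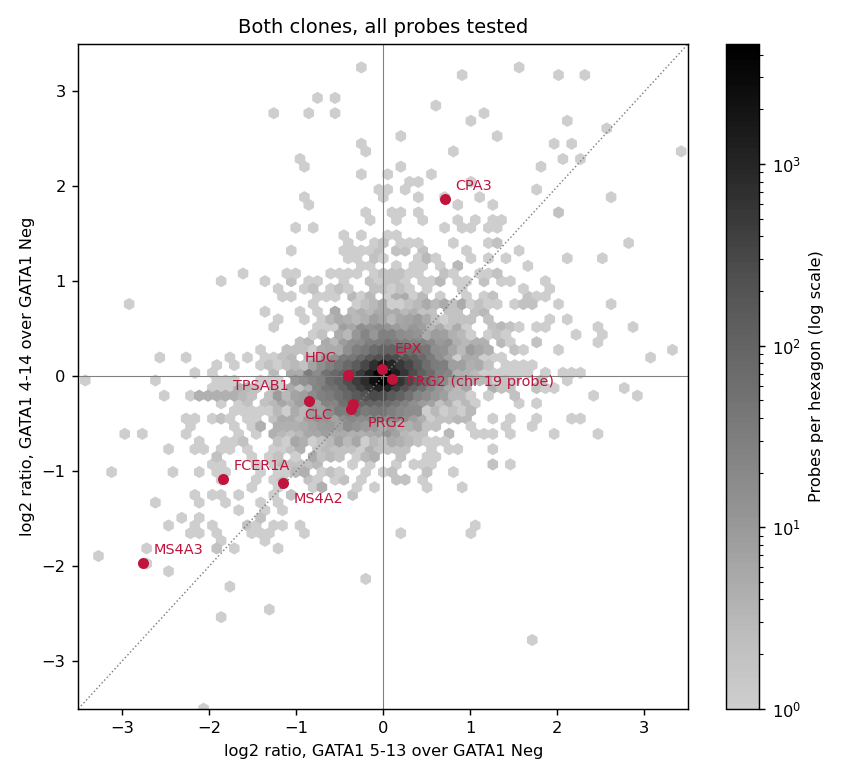
Mean log2 ratio of the arrays of GATA1 5-13 (horizontal axis) against that of GATA1 4-14 (vertical axis), with all probes tested as grey hexagons shaded by the number of probes on a log scale, the 10 member probes in red, and the dotted line where both clones are equal; 9 probes lie outside the plot. MS4A2 lies near the dotted line, MS4A3 and FCER1A are lower in GATA1 5-13, and CPA3 is higher in GATA1 4-14.

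MS4A3 and MS4A2 are neighbours in a gene cluster on chromosome 11, with probes 31.25 kb apart. Within 1 Mb of the MS4A3 probe there were 47 other probes, with a median of -0.03, of which 13 (27.7%) were lower and 4 (8.51%) higher on all 4 arrays, against 13.4% and 12.8% of all probes. Of these 13 and 4, 4 and 1 had both RNAs not well above background. The nearest related gene with low ratios was MS4A6A, whose probes lay 104.9 and 112.8 kb away. They had clone means of -1.88 and -1.72 in GATA1 5-13 but -0.30 and -0.32 in GATA1 4-14, and neither passed the test (limma, adjusted p = 0.693 and 0.688). MS4A4A, at 241.1 kb, had a mean of -0.45 in GATA1 5-13 and 0.48 in GATA1 4-14.

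The other MS4A genes on the array gave little signal. MS4A7 was well above background on 1 array in the knockdown RNA and on none in GATA1 Neg. MS4A1, MS4A5, MS4A6E, MS4A8B and MS4A12 were not well above background in either RNA on any array, and neither was NYD-SP21, which the array describes as MS4A13. Among the 4 MS4A genes with a signal in both RNAs, MS4A3 and MS4A2 were thus the ones with ratios below -1 on all 4 arrays.

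**Figure D4:**
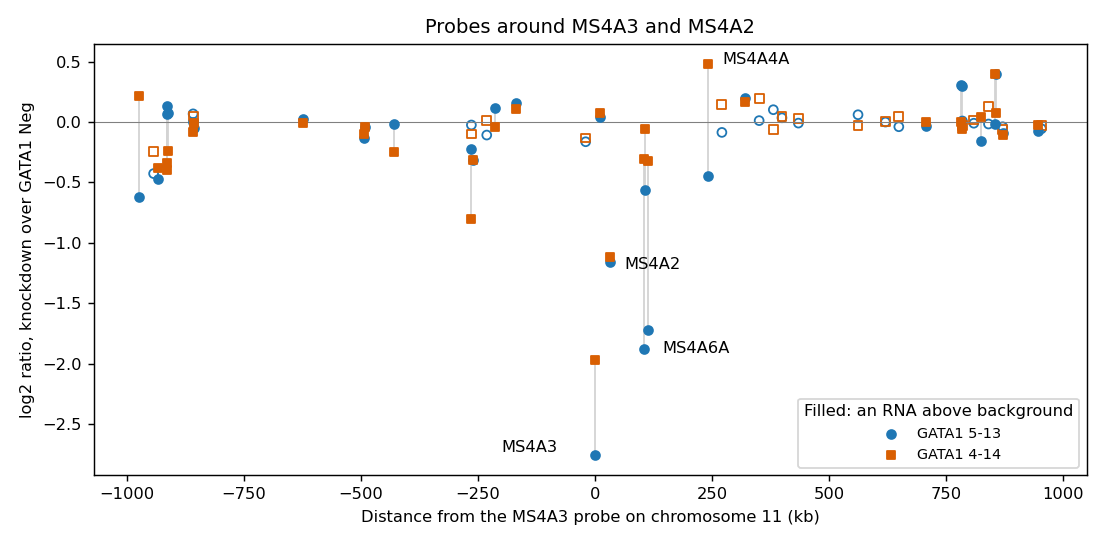
Clone means of the log2 ratio (vertical axis; circles GATA1 5-13, squares GATA1 4-14, grey lines joining the clones of a probe) against the distance of each probe from the MS4A3 probe in kb (horizontal axis), with open symbols where no array had either RNA well above background. MS4A3 and MS4A2 are low in both clones, MS4A6A in GATA1 5-13, and the clones of MS4A4A lie on opposite sides of 0.

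The members were set beside 5 lists of genes of the same cells and their signalling, which held 101 genes on the array with 156 probes. The members themselves were left out of these lists. None of the 156 probes was lower and 2 were higher at an unadjusted p of at most 0.005, and none passed an adjusted p of 0.05. The background for these counts was 0.574% lower and 0.327% higher among all probes. The median was 0.01, with 30 probes (19.2%) lower and 31 (19.9%) higher on all 4 arrays, against 13.4% and 12.8% of all probes. In 25 probes (16%) the clones went opposite ways on every array, against 15.9% of all probes.

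The 35 receptor probes had a median of 0.01 and a range from -1.11 to 0.70, and held both calls. On all 4 arrays 8 (22.9%) were lower and 8 (22.9%) higher, against 13.4% and 12.8% of all probes. Below an unadjusted p of 0.05 were 9 (25.7%), against 7.42% of all probes. C3AR1, the receptor for complement C3a, was higher by 0.63 in GATA1 5-13 and 0.77 in GATA1 4-14, with a mean of 0.70 ± 0.10 (SD, n = 2; limma, adjusted p = 0.456). IL3RA, the interleukin 3 receptor alpha chain, had clone means of 0.42 and 0.42 (limma, adjusted p = 0.54), but GATA1 Neg was well above background on 1 of 4 arrays. That array was not one of GATA1 4-14, where the 1.33-fold higher ratio is not a lower limit. KIT, the receptor for stem cell factor on which mast cells depend, had ratios of -0.31 and -0.28 in GATA1 5-13 and -1.07 and -1.05 in GATA1 4-14, with a mean of -0.67 ± 0.54 (SD, n = 2; limma, adjusted p = 0.678). Thus KIT was nearer to the control in the clone where MS4A3 and FCER1A were farther from it.

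The 43 probes of Fc epsilon receptor signalling had a median of 0.01 and a range from -0.46 to 0.38. On all 4 arrays 6 (14%) of them were lower and 10 (23.3%) higher, against 13.4% and 12.8% of all probes. The 34 probes of other mediator and granule genes had a median of 0.03 and a range from -0.59 to 0.49, with 3 (8.82%) lower and 9 (26.5%) higher. Of the 10 and 9 higher probes, 9 and 6 had a signal above background. The 9 MS4A family probes had a median of 0.02, with 2 (22.2%) lower and 1 (11.1%) higher. No probe of these lists passed the test at either threshold. In the same order, 6 (14%), 5 (14.7%) and 1 (11.1%) were below an unadjusted p of 0.05, against 7.42% of all probes. The 35 transcription factor probes had a median of -0.05 and the widest range, from -0.93 to 1.34, with 11 (31.4%) lower and 3 (8.57%) higher on all 4 arrays, against 13.4% and 12.8% of all probes, no call, and 8 (22.9%) below an unadjusted p of 0.05, against 7.42%. GATA2, which also acts in mast cells and basophils, had means of -0.35 ± 0.08 and -0.25 ± 0.07 (SD, n = 2) on its 2 probes (limma, adjusted p = 0.573 and 0.63).

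**Figure D5:**
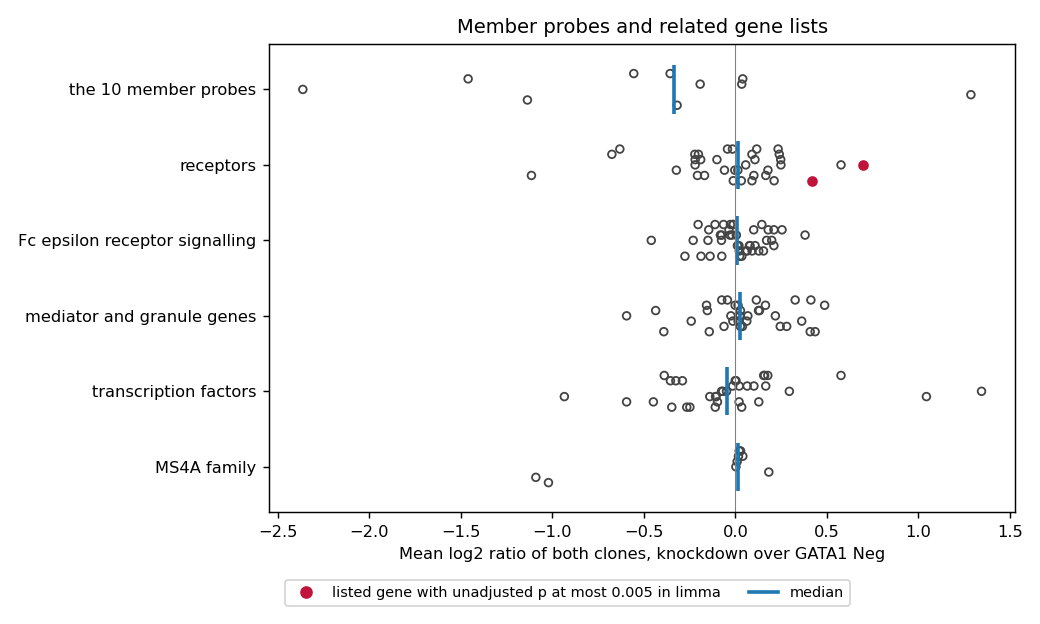
Mean log2 ratio over both clones (horizontal axis) of each probe (circles) in the set of members and in 5 related lists (rows), with vertical bars at the medians and red points for listed genes at an unadjusted p of at most 0.005. The list medians lie between -0.05 and 0.03, and that of the members is -0.34; members and lists were chosen with earlier results of these arrays known.

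Markers of lineages the cells could hold were read from the same fit. Of 14 megakaryocyte probes 8 were well above background in GATA1 Neg on all 4 arrays, ITGA2B, ITGB3, GP9 and GP1BA among them, while PF4 and VWF were not, and the median was -0.09. On all 4 arrays 5 of the 14 (35.7%) were lower and 0 higher, against 13.4% and 12.8% of all probes. Of the 5 lower probes, 3 had a signal above background. These were both probes of ITGA2B and a probe of GP1BA. The GP1BA probe had clone means of -1.68 and -0.16 for GATA1 5-13 and GATA1 4-14, and a mean over both of -0.92 ± 1.07 (SD, n = 2; limma, adjusted p = 0.712). It was the lowest of the list, whose means ran from -0.92 to 0.14, and does not stand for the others. The 12 erythroid probes had a median of 0.00, with 0.14 in GATA1 5-13 and -0.31 in GATA1 4-14, and 11 of them were above background. Of 8 neutrophil and monocyte probes 2 were above background on all 4 arrays, as were 2 of 5 for B cells and 1 of 5 for T cells, with medians of -0.05, -0.01 and 0.06. None of the marker probes reached an unadjusted p of 0.005, as 0.901% of all probes did. Below 0.05 were 2 megakaryocyte probes (14.3%) and 2 erythroid probes (16.7%), against 7.42% of all probes. The part of these markers in the member values was not tested.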

How the data were processed

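Total RNA of each clone and of GATA1 Neg was amplified, labelled with Alexa555 or Alexa647 and co-hybridized on an Agilent whole human genome array. Per the file headers, the authors extracted the spots with Agilent Feature Extraction 9.5.3.1, and probe positions are on hg18. The authors deposited mean spot and median background intensity in both channels, not normalized, with flags (other values) for outliers, saturation and signal well above background. The deposited log10 ratios and their errors, from the same software, and the table of the series, which held the same ratios turned to knockdown over control, were used for alternatives. The score column ControlType, as deposited, picked out control spots. On each array 61.6 to 66.4% of the 43376 non-control spots were well above background in a channel, 135 to 152 were outliers and left out, and none was saturated. The number of arrays limits the precision.

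Intensities were corrected with normexp (offset 50) and normalized by loess within each array in limma 3.58.1 (R 4.3.3), with control spots at weight 0. The offset draws ratios of dim probes towards 0. Spots of a probe were averaged, ratios were turned to log2 of knockdown over GATA1 Neg, and each clone was reduced to the mean of its arrays. Means over the 2 clones were tested against 0, two-sided, with limma's moderated test and Benjamini-Hochberg adjustment over 40974 probes, and the script was tested on simulated data. GATA1 Neg is on every array, so its own spread is not in the test, and the separateness of the RNA samples is not given in the sources used here. Where no array of a clone had 1 RNA well above background, a bound (at least N-fold) was taken after loess and Aquantile scaling, from means over both dye orientations. For CLC and IL3RA in GATA1 4-14 this bound was the same as the measured ratio and is not given as a limit.

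Named were all members, GATA1, GATA2, KIT, FCER1G, the MS4A genes, listed probes at an unadjusted p of 0.005 or less with 1 sign and the brighter RNA above background on all 4 arrays (at most 4 per list), and the 5 probes nearest MS4A3. Megakaryocyte markers were named outside this rule, and ratios are given only for the GP1BA probe, which had the lowest mean of its list. The members, lists and markers were chosen with earlier results of these data known. Alternatives were no background correction, the scanner software's ratios, the series table, median centring in place of loess, dim probes left out, outlier spots kept, all 4 arrays taken singly (blocked by replicate number or not), weighting by the ratios' errors, and each array or clone left out.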

Additional observations from a re-analysis of the deposited data

Results flagged for a closer look

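MS4A4A, a neighbour of MS4A3 in the gene cluster on chromosome 11, went opposite ways in the clones. Its log2 ratio was -0.51 and -0.39 on the arrays of GATA1 5-13 and 0.44 and 0.53 on those of GATA1 4-14, so that the clone means differed by -0.93 (GATA1 5-13 minus GATA1 4-14). The difference was not tested, since each clone is 1 sample, and 15.9% of all probes had their clones on opposite sides on every array.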

How the results depend on the processing

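The count of member probes lower on all arrays was 6, and over the 14 alternatives that give it, 6 or 7. The count higher on all arrays was 1, and leaving out 1 array or a clone gave 1 to 2, with 2 without array 2 of GATA1 5-13, array 2 of GATA1 4-14 or either clone, where fewer arrays have to share a sign. MS4A3, FCER1A, MS4A2, TPSAB1, CLC, PRG2 on chromosome 11 and CPA3 kept their direction under all 15 alternatives, many of which could not turn it. Keeping outlier spots, leaving out dim probes and taking the arrays singly returned the same means. The series table repeats the scanner software's ratios. With 1 sign on all 4 arrays, leaving out an array or a clone could not turn these probes either. Only no background correction, the scanner software's ratios, median centring and error weighting could have done so. HDC changed sign without GATA1 5-13. Of the 14 alternatives that give EPX and the chromosome 19 PRG2 probe, EPX had the opposite sign in 3 and was exactly 0 in 3, and the PRG2 probe had the opposite sign in 1. In the 13 alternatives that keep both clones the mean ran from -2.39 to -2.27 for MS4A3, from -1.49 to -1.41 for FCER1A, from 1.15 to 1.34 for CPA3 and from -1.42 to -0.68 for MS4A2. Signal over background limits MS4A2, PRG2, CLC and TPSAB1, whose size moved most with the background step.

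Calls depended on what counts as a replicate. The arrays of a clone were counted as 1 replicate, since no source used here names separate RNA samples for them. The replicate number and the dye orientation are the same on these arrays and cannot be told apart, and no label says that a number marks a shared culture or day. Deviations of array 1 from the clone mean correlated at 0.773 between the clones, over 40974 probes. Array 2 gives the same value by construction, since its deviations mirror those of array 1. With 4 values and no block, 1240 probes passed the adjusted and 2209 the unadjusted threshold, and with the replicate number as a block 269 and 1776 did, against 0 and 369 with the clones as replicates. Listed related probes at the unadjusted threshold then numbered 23 without and 17 with the block, against 2, and 8 and 1 of them passed the adjusted threshold. The error-weighted mean of the 4 arrays, which leaves out the spread between clones, gave 3416 and 3536 probes and 34 listed ones. Leaving out dim probes gave 1 adjusted call and 1 listed probe. Leaving out 1 array gave 0 to 1 adjusted calls and 1 to 5 listed probes, with 1 without array 2 of GATA1 5-13 and 5 without array 2 of GATA1 4-14. Member probes at the unadjusted threshold numbered 2, and 1 without background correction, 3 with median centring, with dim probes left out or without any 1 array, 6 without the block, 5 with it, 7 by error weighting and 2 in the other alternatives with a test. Nothing is read from these member counts, since the set was chosen on this comparison. The causes of these shifts were not tested.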
